A study of Homo sapiens with 8 samples.

Results

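The cholesterol exporter genes and the liver X receptor (LXR) axis were followed in foam cells with and without auranofin. The set holds 9 genes, taken by symbol from the 62700 rows of the deposited gene count table: ABCA1, ABCG1 and ABCA7 (transporters), NR1H3 and NR1H2 (the receptors LXR alpha and LXR beta), NCOR1 (a corepressor), and MYLIP, LPCAT3 and SMPDL3A (LXR target genes). All 9 had a row and all 9 were among the 17535 genes with enough counts to be tested.

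Macrophages cannot break down the sterol ring, so they rid themselves of surplus cholesterol by exporting it to lipoproteins. LXRs are nuclear receptors that pair with retinoid X receptors and are activated by oxysterols, which build up as cells load with cholesterol. Without a ligand, corepressors such as NCOR1 keep LXR target genes low. With a ligand, the receptors raise the exporter genes and, in human macrophages, NR1H3 itself.

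The cells were THP-1, a human monocytic leukaemia line, differentiated to macrophages by 72 h in PMA, a phorbol ester, at 50 ng/mL, then turned into foam cells with acetylated LDL for 48 h, in both groups. The AF group (4 libraries) received auranofin at 0.5 µM, a gold compound that inhibits thioredoxin reductase, and the DMSO group (4 libraries) received vehicle alone. The vehicle, DMSO, was under 0.1% by volume in both groups. The treatment protocol puts the first dose 24 h ahead of the lipoprotein with the drug kept on, while the design text puts the drug after loading. The comparison asks how auranofin alters foam cell gene expression. The line is a single leukaemic line, and nothing in the labels shows that libraries came from separate cultures, so p-values measure the spread between libraries, which may be technical.

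Libraries held between 24522949 and 32325981 counts in AF and between 19336073 and 27278947 in DMSO. AF replicate 1 stood apart: nuclear ribosomal RNA took 34.8% of its counts, where the rest of AF had 0.809% to 0.852% and DMSO 0.743% to 0.963%. Values below are CPM, read counts brought to a common library size with TMM scaling. For the genes of the set and the pathway lists, a call or count that changed without AF replicate 1 is given below. Of 10 macrophage markers 9 averaged over 1 CPM. Their summed level was 3050 to 3400 CPM in AF and 3530 to 4100 CPM in DMSO, with ITGAM, ITGAX and CD14 higher and LYZ, MRC1 and MSR1 lower with auranofin. CD68, a defining macrophage marker, had 0.159 to 0.858 CPM in AF and 0.308, 0.660, 4.64 and 0.384 CPM in DMSO replicates 1 to 4, so that DMSO replicate 3 alone stood above AF. AC016876.2 lies over 81.7% of its exon bases on the same strand, so its level is uncertain. Summed markers of T cells stayed at or below 0.163 CPM in AF and 0.255 CPM in DMSO, those of B cells at or below 1.40 and 1.92, those of fibroblasts and smooth muscle at or below 1.20 and 0.776, and those of epithelium at or below 0.690 and 0.753. MS4A1, COL1A2 and EPCAM had no count. Endothelial markers summed to 4.39 to 4.99 CPM in AF and 4.66 to 5.88 CPM in DMSO. Most of this was VWF, at means of 4.07 CPM in AF and 4.48 CPM in DMSO, the 1 of 4 markers averaging over 1 CPM. The part of shifting macrophage markers in the results below was not tested.

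Both main exporter genes fell with auranofin while NR1H3, the gene of LXR alpha, rose. ABCG1 fell by 0.42 ± 0.06 on the log2 scale (SE) and ABCA1 by 0.26 ± 0.07, and NR1H3 rose by 0.31 ± 0.10. These were the 3 of 9 genes past an adjusted p of 0.05 (edgeR's quasi-likelihood test, Benjamini-Hochberg over all genes tested), where 15.4% of all genes tested were called, 7.62% higher and 7.81% lower. The median log2 fold change was -0.04 over the 9 genes and 0.005 over all genes tested. The 3 calls were also made by DESeq2. In 3 of 9 genes the groups did not overlap, ABCA1 and ABCG1 below and NCOR1 above, against 19.5% of all genes tested (9.68% below and 9.86% above). With library sizes left unscaled, that is with library totals and no TMM factor, the calls over all genes were 183 higher and 700 lower. With TMM they were 1336 and 1369. The TMM factor was 0.679 in AF replicate 1, 1.045 to 1.057 in the rest of AF and 1.046 to 1.078 in DMSO. The part of AF replicate 1 in this difference was not tested. In bulk RNA, fewer cells with a transcript and less of it per cell cannot be told apart.

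ABCA1 carries cholesterol and phospholipid to lipid-poor apolipoprotein A-I. Its promoter holds an LXR response element, a pair of AGGTCA motifs in the same direction with any 4 bases between them (a direct repeat spaced by 4, DR4). The site is printed because ABCA1 is one of the exporters that fell and its promoter gave the closest DR4 match among the genes of the set with a promoter entry. The window below is the 30 bases around it, 5′ to 3′ on the plus strand of GRCh38.p14 (RefSeq), chr9:104928202-104928231, with the DR4 in capitals; ABCA1 is read from the other strand.

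ABCA1: agcgcagAGGTTACTATCGGTCAaagcctg

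The site lay 54 to 69 bases before the RefSeq start of the gene and matched 10 of the 12 fixed letters, with the substitutions C5T and A11C (consensus base, position counted from 1 at the 5′ end of the DR4, then the base in the promoter). Searched on both strands over the 250 bases before the start, a DR4 with at most 2 mismatches was present in 2.03% of 35116 RefSeq promoters. Of the 9 genes 7 had a promoter entry, ABCG1 and SMPDL3A having none, and ABCA1 was the one of these 7 with so close a match. Among 18 LXR target genes with an entry, APOC2 was the other; its site is shown for comparison, on the minus strand at chr19:44945888-44945917, with the substitutions G2C and A6C.

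APOC2: ggcaatgACGTCCCCCAAGGTCAcgtcaca

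APOC2, a cofactor of lipoprotein lipase, had a log2 fold change of -0.08 ± 0.10 and was not called (adjusted p = 0.607). APOC4-APOC2 lies over 55.4% of its exon bases on the same strand, so its counts are uncertain. A match is a description of letters and not a measured binding site.

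ABCA1 (ENSG00000165029.15 on chromosome 9, 104781002 to 104928237, GRCh38) had 372, 311, 327 and 352 CPM across AF libraries 1 to 4, against 390.1, 406, 426 and 411 CPM in DMSO replicates 1 to 4. Every AF library lay below every DMSO library, and AF replicates 2 and 3 were lowest. The means were 341 ± 26.9 CPM in AF and 408 ± 15 CPM in DMSO (SD, n = 4 each), a fold of 0.834. The 95% interval of the log2 fold change was -0.41 to -0.11, and its adjusted p was 0.0200. Dropping AF replicate 2 (adjusted p = 0.0597), AF replicate 3 (0.0690) or DMSO replicate 3 (0.0600) ended the call, as did leaving library sizes unscaled (0.202). It held with AF replicate 1 dropped, at a log2 fold change of -0.31 (0.00312).

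ABCG1 moves cholesterol to high-density lipoprotein and within the cell. Its gene (ENSG00000160179.18 on chromosome 21, 42199689 to 42297244) had 61.8, 52.1, 52.1 and 54.4 CPM across AF libraries 1 to 4, against 74.5, 76.7, 69.0 and 74.1 CPM in DMSO. The groups did not overlap, and the highest AF library was again replicate 1. Means were 55.1 ± 4.57 CPM in AF and 73.6 ± 3.27 CPM in DMSO (SD, n = 4 each), a fold of 0.748 with an adjusted p of 0.000564. The 95% interval of the log2 fold change was -0.56 to -0.28. Without any one library the change stayed between -0.48 and -0.39, and it was called each time (largest adjusted p 0.00430).

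Whether ABCG1 fell further than ABCA1 was asked of the ratio of their counts within each library, which no scaling alters. The ratio was 0.166, 0.167, 0.159 and 0.155 in AF replicates 1 to 4, against 0.191, 0.189, 0.162 and 0.180 in DMSO. DMSO replicate 3 fell among the AF values, so the groups overlapped. The log2 ratio was lower by 0.16 in AF (exact permutation test, two-sided, p = 0.0857, and 0.114 adjusted over the 4 ratios tested), which is not past the threshold.

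ABCA7, a relative of ABCA1 linked to phospholipid transport and phagocytosis, was not called. It ranged from 27.9 to 42.7 CPM in AF and from 30.2 to 37.2 CPM in DMSO, so the AF libraries spanned the DMSO ones on both sides. Its log2 fold change was 0.08 ± 0.12, with a 95% interval from -0.17 to 0.33 (adjusted p = 0.684), and its sign turned when library sizes were left unscaled or AF replicate 2 was dropped.

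**Figure D1:**
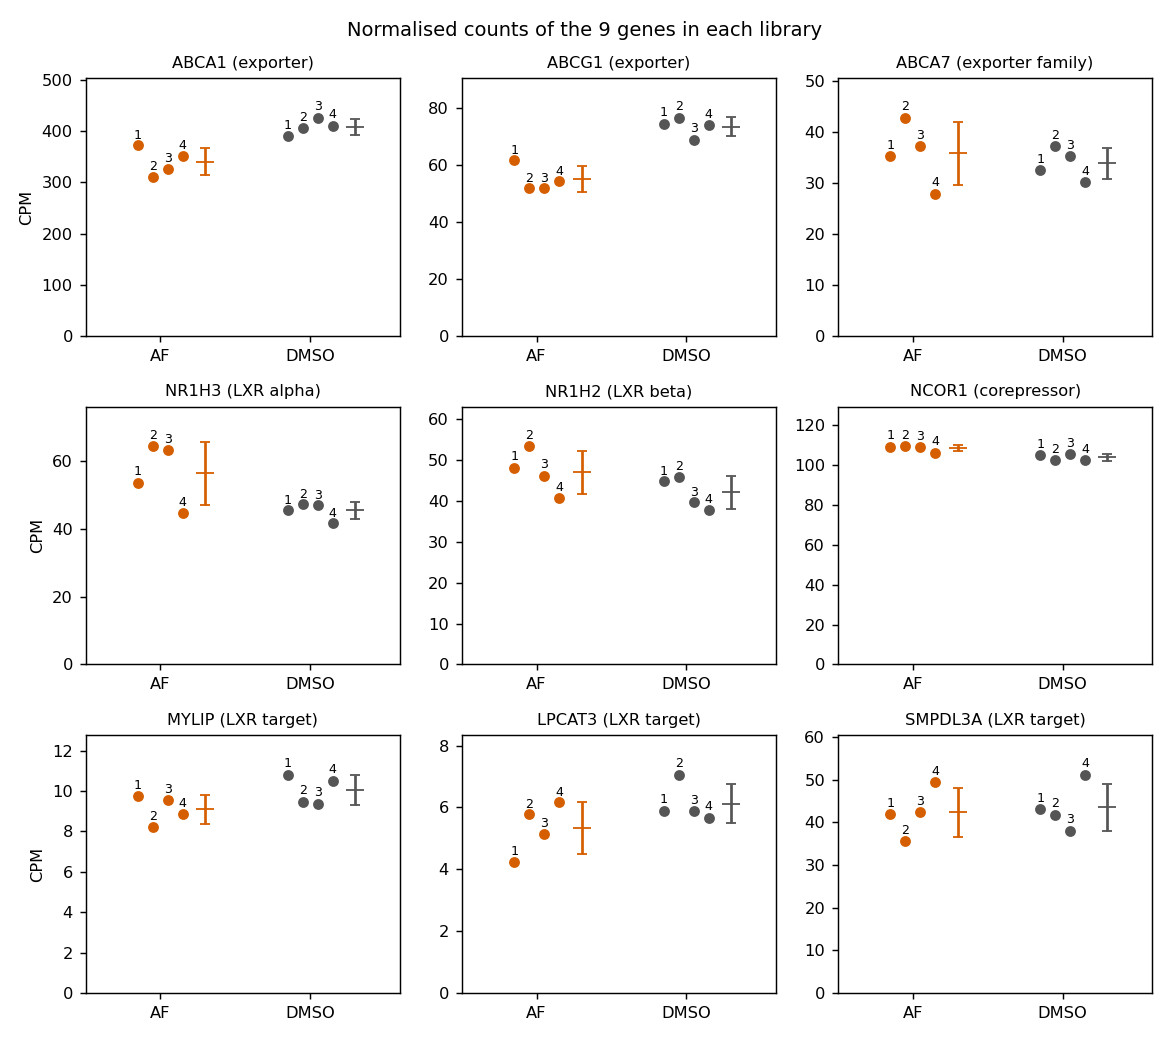
CPM of each of the 9 genes by library, AF left and DMSO right in every panel, with replicate numbers on the points and the mean ± SD (n = 4) beside them. ABCA1 and ABCG1 separate downward in AF, NCOR1 separates narrowly upward, and NR1H3 is highest in AF replicates 2 and 3.

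Across ABCA and ABCG transporters 2 of 8 tested genes fell and none rose, where 7.81% of all genes tested fell and 7.62% rose. The 2 were ABCG1 and ABCA1, genes of the set reported above, and the remaining 6 were not called. The median log2 fold change was -0.06, against 0.005 over all genes tested. Of 17 genes in this list 9 were too low to test, among them ABCG4, ABCG5 and ABCG8, other sterol transporters, each averaging under 0.1 CPM in both groups. ABCA2, a transporter of late endosomes and lysosomes, averaged 79.0 ± 10.7 CPM in AF and 77.8 ± 5.08 CPM in DMSO and was not called (log2 fold change 0.02 ± 0.09, adjusted p = 0.892; chosen after its values were seen).

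The receptor genes came next in order. NR1H3 (ENSG00000025434.18 on chromosome 11, 47248300 to 47269032) had 53.5, 64.3, 63.1 and 44.5 CPM across AF libraries 1 to 4, against 45.5, 47.3, 47.1 and 41.8 CPM in DMSO. AF replicates 2 and 3 were far above every DMSO library, AF replicate 1 was moderately above, and AF replicate 4 lay inside the DMSO range. Means were 56.4 ± 9.25 CPM in AF and 45.4 ± 2.58 CPM in DMSO (SD, n = 4 each), a fold of 1.24 with a 95% interval of the log2 fold change from 0.10 to 0.52 (adjusted p = 0.0436). The call held without AF replicate 1 or AF replicate 4 and was lost without any other single library, with an adjusted p of up to 0.157, and with library sizes unscaled (0.689). On the other strand 4.17% of its exon bases are shared with ACP2.

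NR1H2, which encodes the more widely expressed LXR beta, had 40.6 to 53.4 CPM in AF and 37.9 to 46.0 CPM in DMSO. The groups overlapped, and the log2 fold change of 0.16 ± 0.09 was not called (adjusted p = 0.242; 95% interval -0.03 to 0.35). The count ratio of NR1H3 to NR1H2 was 1.11, 1.20, 1.37 and 1.10 in AF replicates 1 to 4, against 1.01, 1.03, 1.19 and 1.10 in DMSO. These groups overlapped too, and the log2 ratio differed by 0.14 (exact permutation test, two-sided, p = 0.171, and 0.171 adjusted over the 4 ratios), so a larger change of LXR alpha than of LXR beta was not shown.

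Of the called genes of the set, ABCA1 fell and NR1H3 rose, and their ratio was compared within each library. As both calls came from these same libraries, a lower ratio in AF restates them and is not separate evidence. The count ratio of ABCA1 to NR1H3 was 6.96, 4.84, 5.18 and 7.89 in AF replicates 1 to 4, against 8.57, 8.57, 9.05 and 9.84 in DMSO. All 4 AF libraries were below all 4 DMSO libraries, with replicates 2 and 3 far below and replicate 4 nearest. The log2 ratio was lower by 0.56 in AF (exact permutation test, two-sided, p = 0.0286, the smallest that 4 against 4 allows, and 0.114 adjusted over the 4 ratios). The adjusted value is not past the threshold, and with any single DMSO library dropped the unadjusted exact p was 0.0571.

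**Figure D2:**
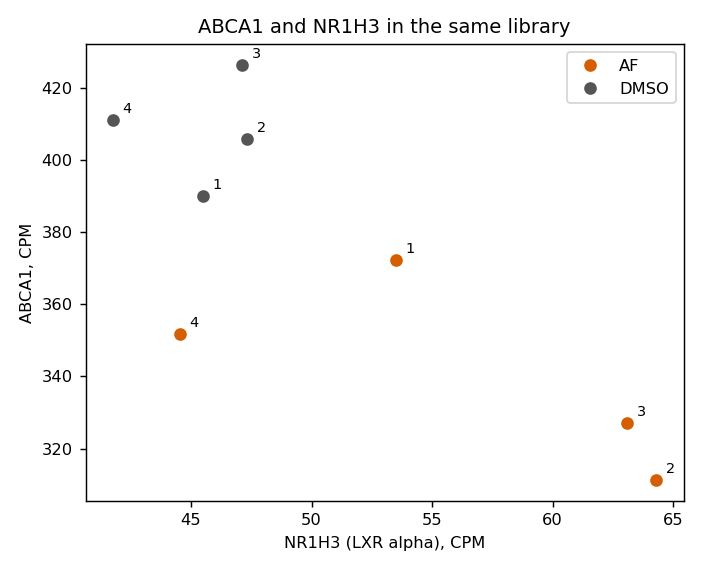
ABCA1 (vertical axis, CPM) against NR1H3 (horizontal axis, CPM), 1 point per library with its replicate number, AF and DMSO in different colours; the axes do not start at 0. AF replicates 2 and 3 have the highest NR1H3 and the lowest ABCA1, and AF replicate 4 has NR1H3 within the DMSO range and ABCA1 below it.

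**Figure D3:**
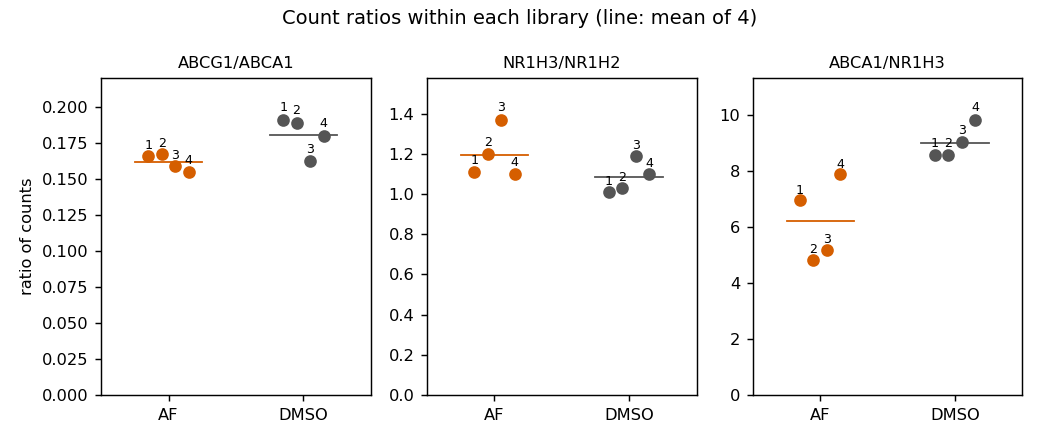
Count ratios ABCG1/ABCA1, NR1H3/NR1H2 and ABCA1/NR1H3 within each library, AF left and DMSO right, with the mean of 4 as a line. Of these, ABCA1/NR1H3 separates the groups without overlap.

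NCOR1, part of the complex that holds LXR targets down, had 109, 109, 109 and 106 CPM across AF libraries 1 to 4, against 105, 102, 105 and 102 CPM in DMSO. The 4 AF values lay above the 4 DMSO values by a narrow margin. The log2 fold change was 0.06 ± 0.05 and was not called (adjusted p = 0.404; 95% interval -0.04 to 0.16), and with library totals alone its sign turned.

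Among 20 tested receptor partners and coregulators 2 were called, NR1H3 and TBL1X, both higher; this is 10% of the list, against 15.4% of all genes tested. The median log2 fold change was 0.04. By the same edgeR test 9 of the 20 had an unadjusted p under 0.05, as 29.7% of all genes tested did. TBL1X encodes a subunit of corepressor complexes and averaged 39.9 ± 2.80 CPM in AF and 32.5 ± 0.991 CPM in DMSO (log2 fold change 0.29 ± 0.08, adjusted p = 0.0201). RXRA, which encodes a partner receptor of LXR, averaged 259 ± 21.0 CPM in AF and 264 ± 12.6 CPM in DMSO and was not called (log2 fold change -0.03 ± 0.07, adjusted p = 0.827). RXRA was chosen after its values were seen. Neither TBL1X (adjusted p up to 0.0953) nor NR1H3 was called once AF replicate 2 or 3, or DMSO replicate 2 or 3, was dropped. With library sizes unscaled neither was called (TBL1X 0.733). The count was 1 with DMSO replicate 1 dropped and 4 with AF replicate 4 dropped. With AF replicate 1 dropped it was 3, of which 2 were higher and 1 lower.

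The 3 remaining LXR target genes were not called. MYLIP, also named IDOL, encodes a ubiquitin ligase that sends lipoprotein receptors to the lysosome. It had 9.77, 8.21, 9.56 and 8.85 CPM across AF libraries 1 to 4, against 10.8, 9.47, 9.37 and 10.5 CPM in DMSO. The groups overlapped. The log2 fold change was -0.15 ± 0.10 (adjusted p = 0.334; 95% interval -0.35 to 0.06).

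SMPDL3A encodes a secreted phosphodiesterase that sterols induce through LXR in human macrophages. It ranged from 35.6 to 49.4 CPM in AF and from 38.0 to 51.2 CPM in DMSO, with replicate 4 the highest of each group. Its log2 fold change was -0.04 ± 0.10 (adjusted p = 0.832; 95% interval -0.26 to 0.18), and the sign turned without AF replicate 2 or DMSO replicate 4.

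LPCAT3 places polyunsaturated acyl chains in membrane phospholipids. It was the lowest of the 9 genes, at 80 to 195 counts and 4.25 to 6.16 CPM in AF and at 118 to 182 counts and 5.67 to 7.06 CPM in DMSO. Its log2 fold change was -0.19 ± 0.14 (adjusted p = 0.367; 95% interval -0.48 to 0.10). EMG1 lies over 65.6% of its exon bases on the other strand, and as the strand setting is not given in the sources used here, its level is uncertain.

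**Figure D4:**
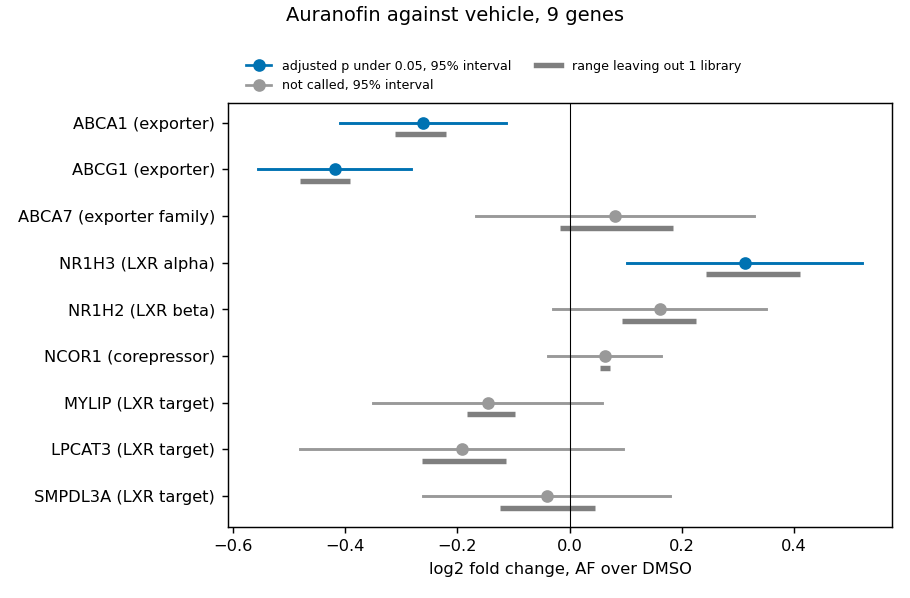
Log2 fold change of the 9 genes, AF over DMSO, with 95% intervals from the fit to all genes (blue, called; grey, not called) and, below each, the range of the value when 1 library is left out. ABCG1 and ABCA1 lie below 0 and NR1H3 above 0 with intervals that do not reach 0.

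In the wider list of LXR target genes, 4 of 20 tested genes rose, 2 fell and 14 were not called, where 7.62% of all genes tested rose and 7.81% fell; the median log2 fold change was -0.08, against 0.005 over all genes tested. The risers were MERTK, the receptor for apoptotic cells, SCD, a fatty acid desaturase, TGM2, a transglutaminase, and NR1H3. MERTK had 208, 185, 182 and 224 CPM across AF libraries 1 to 4, against 148, 149, 156 and 158 CPM in DMSO (log2 fold change 0.39 ± 0.07, adjusted p = 0.00113). TGM2 rose by 0.40 ± 0.09 (adjusted p = 0.00926), to 23.0 ± 1.74 CPM in AF, against 17.4 ± 0.503 CPM in DMSO. SCD rose by 0.36 ± 0.06 (adjusted p = 0.00170), to 595 ± 20.6 CPM in AF, against 463 ± 18.6 CPM in DMSO. Each of the 3 had no overlap between groups, as 19.5% of all genes tested did, and was called without any one library, but none was called with library sizes unscaled (adjusted p of 0.544 to 0.622).

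The LXR target SREBF1, which encodes the master factor of fatty acid synthesis, had 23.0 to 26.9 CPM in AF and 25.2 to 32.4 CPM in DMSO (log2 fold change -0.17 ± 0.10, adjusted p = 0.294). The apolipoprotein gene APOE averaged 1108 ± 142 CPM in AF and 1173 ± 74.6 CPM in DMSO (log2 fold change -0.08 ± 0.09, adjusted p = 0.597). Both groups overlapped for each of these genes, which were chosen after their values were seen. Most of the list was thus not called in either direction. Those that fell were ABCG1 and ABCA1, genes of the set already reported above. The called genes outside the set, MERTK, SCD and TGM2, all rose.

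**Figure D5:**
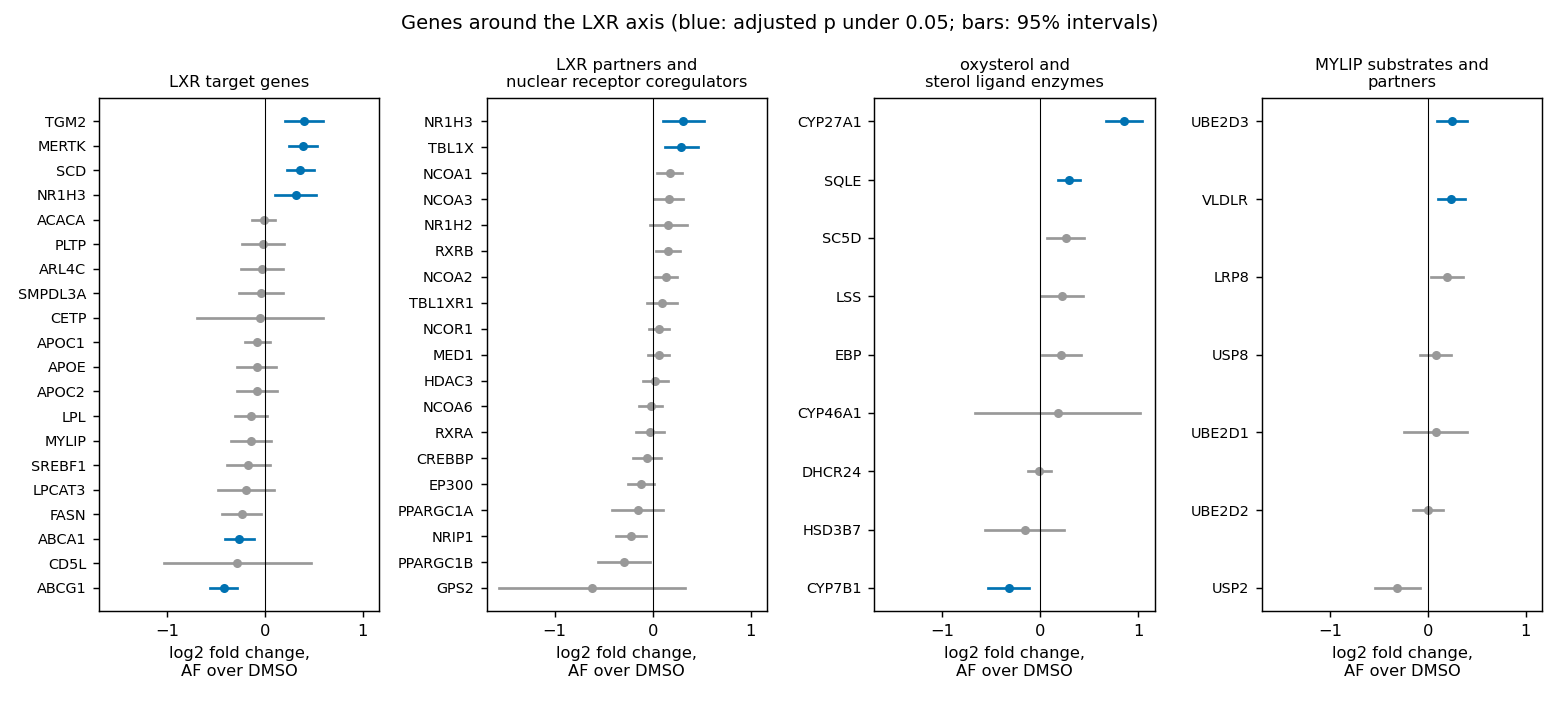
Log2 fold change, AF over DMSO, of tested genes in 4 lists, with 95% intervals; blue marks an adjusted p under 0.05. LXR targets are called on both sides of 0, those below 0 being ABCG1 and ABCA1. CYP27A1 has the largest positive value among those plotted (0.85).

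Among enzymes that make or remove LXR ligands, CYP27A1 and SQLE rose and CYP7B1 fell. These were 3 of 9 tested genes, where 15.4% of all genes tested were called, and the median log2 fold change was 0.21. CYP27A1, which makes the LXR ligand 27-hydroxycholesterol, had 125, 156, 143 and 109 CPM across AF libraries 1 to 4, against 73.5, 75.7, 71.9 and 74.0 CPM in DMSO. Like NR1H3 it was highest in AF replicates 2 and 3, but here all 4 AF libraries were well above DMSO (log2 fold change 0.85 ± 0.09, adjusted p = 1.94e-05). SQLE, squalene epoxidase of cholesterol synthesis, rose by 0.29 ± 0.05 (adjusted p = 0.00204), to 179 ± 9.28 CPM in AF, against 146 ± 5.04 CPM in DMSO. CYP7B1, which hydroxylates oxysterols for removal, fell by 0.32 ± 0.10 (adjusted p = 0.0393), to 12.7 ± 0.921 CPM in AF, against 15.95 ± 1.82 CPM in DMSO. The CYP7B1 call was lost without AF replicate 1 (adjusted p = 0.0893) and without 4 other single libraries, and with the libraries of each name stem summed (0.0922). Without AF replicate 1 the 9 tested genes gave 3 higher and 0 lower. With library sizes unscaled CYP27A1 kept its call (0.71, adjusted p = 0.00239), while SQLE (0.735) and CYP7B1 (0.203) lost theirs. CH25H, cholesterol 25-hydroxylase, was too low to test, averaging 0.104 CPM in AF and 0.128 CPM in DMSO.

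Among the substrates and partners of MYLIP, VLDLR and UBE2D3 rose, while MYLIP itself was not called. Of 8 tested substrates and partners 3 rose and none fell, where 7.62% of all genes tested rose and 7.81% fell, and the median log2 fold change was 0.14. VLDLR, the gene of a lipoprotein receptor that MYLIP marks for degradation, rose by 0.24 ± 0.06 (adjusted p = 0.0197), to 100.05 ± 4.73 CPM in AF, against 84.7 ± 6.82 CPM in DMSO. UBE2D3, a ubiquitin-conjugating enzyme gene, rose by 0.25 ± 0.07 (adjusted p = 0.0287), to 248 ± 14.8 CPM in AF, against 209 ± 19.8 CPM in DMSO. LRP8, the gene of another receptor substrate, was not called (log2 fold change 0.19 ± 0.07, adjusted p = 0.0951; chosen after its values were seen). With AF replicate 3, DMSO replicate 2 or DMSO replicate 3 dropped, the count of 3 became 1, and neither VLDLR (adjusted p up to 0.0697) nor UBE2D3 (up to 0.103) was called. With library sizes unscaled none of the 8 was called (VLDLR 0.860, UBE2D3 0.841). By DESeq2, and without AF replicate 1, the count was 4, with 3 higher and 1 lower. Removal of ribosomal RNA, no count filter and protein-coding genes alone gave the same counts.

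The relatives of LPCAT3 and SMPDL3A gave few calls. Of 7 tested lysophospholipid acyltransferases, LPCAT2 fell and the rest were not called; this is 14.3% of the list, against 15.4% of all genes tested. The median log2 fold change was -0.11. LPCAT2, which also makes platelet-activating factor, had 44.1, 41.4, 45.5 and 46.6 CPM across AF libraries 1 to 4, against 54.9, 53.8, 58.4 and 57.1 CPM in DMSO (log2 fold change -0.34 ± 0.06, adjusted p = 0.00208), and its call was lost with library sizes unscaled (adjusted p = 0.0847). Of 5 tested genes of the sphingomyelinase family 0 were called by edgeR, 0 had an unadjusted p under 0.05 (29.7% of all genes tested did) and 0 were called by DESeq2. The smallest p in that family was that of SMPD2, a neutral sphingomyelinase gene, whose log2 fold change was -0.18 ± 0.09 (adjusted p = 0.180). PPIL6 lies over 20.3% of its exon bases on the other strand.

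Levels were compared between the 9 genes per kilobase of exon, as mean CPM divided by the union of exons in GENCODE 29. ABCA1 was highest in both groups, at 30.0 ± 2.37 CPM per kb in AF and 36.0 ± 1.32 in DMSO, followed by SMPDL3A at 18.0 ± 2.41 in AF and 18.5 ± 2.36 in DMSO. NR1H2 (12.5 ± 1.41 CPM per kb in AF, 11.2 ± 1.05 in DMSO), NR1H3 (12.4 ± 2.04 and 10.0 ± 0.570) and ABCG1 (9.0 ± 0.747 and 12 ± 0.534) were neighbours. In AF the NR1H3 libraries overlapped those of NR1H2 and of ABCG1, and in DMSO those of NR1H2 overlapped both. NCOR1 (7.03 ± 0.0951 CPM per kb in AF, 6.73 ± 0.106 in DMSO), ABCA7 (4.27 ± 0.733 and 4.04 ± 0.368), MYLIP (3.00 ± 0.234 and 3.31 ± 0.241) and LPCAT3 (1.13 ± 0.177 and 1.30 ± 0.134) followed in that order in both groups. ABCG1 lay above the means of both receptor genes in DMSO and below both in AF.

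The genes whose log2 CPM followed ABCA1 most closely over the 8 libraries, among 9370 genes averaging at least 10 CPM, were FGL2 (Pearson r = 0.984), NAIP (0.981), UTP20 (0.981), ASXL2 (0.980) and the pseudogene RPS26P58 (0.980, its reads uncertain because copies share sequence). Those nearest to ABCG1 were PRKCA (0.990), COTL1 (0.990), ZNF704 (0.989), MFHAS1 (0.985) and RUNX3 (0.984). All 10 fell with auranofin, by between 0.25 (ASXL2) and 0.85 (FGL2) on the log2 scale, where 7.81% of all genes tested were called lower. As they were picked for following genes that fell, their direction was fixed by the choice and is not separate evidence. The call of RPS26P58 (adjusted p = 0.0398) held in 2 of the 8 fits that leave out 1 library, those without AF replicate 1 or 4. With library sizes unscaled it was lost (0.136), as were those of ASXL2, PRKCA and COTL1 (0.104 to 0.177). These r values are descriptions, since the points share the division into AF and DMSO.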

How the data were processed

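The labels describe a stranded poly-A library method starting with 250 ng of total RNA from THP-1 foam cells (4 AF, 4 DMSO). The authors deposited a table of raw counts for each gene, not normalised. The submitters' processing notes name STAR 2.6.1d, featureCounts, Subread 1.6.3 and GRCh38; which annotation and strand setting were used, and how multi-mapped reads were counted, is not given in the sources used here. Columns were assigned by sample title.

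The count test was edgeR's quasi-likelihood F test (version 4.0.16, R 4.3.3) after filterByExpr and TMM scaling, two-sided, without a block, with 6 residual degrees of freedom and Benjamini-Hochberg adjustment over all genes tested (threshold 0.05). Standard errors are the log2 fold change divided by the square root of F, and intervals are 95%. The p-values and intervals use edgeR's total degrees of freedom, which exceed the 6 residual ones because variance estimates are shared across genes. The biological coefficient of variation was 12.8%. DESeq2 1.42.0 was an alternative. Ratios used counts plus 0.5, and log2 CPM a prior count of 2. The test was first tried on simulated counts, with changes given to random genes over 1 CPM. It called 1 of 50 genes changed by 0.25 on the log2 scale, 22 of 50 at 0.5 and 49 of 50 at 1. Of the 17275 genes tested there, 17075 were unchanged, where the real fit called 2705 genes. Fewer calls make the adjustment stricter, so these shares need not hold for the real fit. A gene that was not called need not be unchanged. A count of 3 came to 0.0889 to 0.159 CPM per library; no molecular identifiers are described, so reads need not be independent molecules.

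The 9 genes and the lists were chosen with earlier results of these data known. Named genes were the 9, up to 4 called genes of smallest p in each direction per list (with no call, the gene of smallest p), and the 5 genes closest to ABCA1 and to ABCG1; any other is said to be chosen after its values were seen. Gene positions are GENCODE 29 on GRCh38 and promoters are RefSeq. Libraries of a group differed beyond sampling noise (lowest chi-square over its degrees of freedom 2.93) and entered singly, although their names share 4 stems. Alternatives were DESeq2, unscaled library totals, removal of ribosomal RNA, other count filters, blocks, summed stems, dropping each library in turn and, chosen after seeing the data, a restriction to protein-coding genes. Some genes of the lists and 1 of the 4 ratios are not reported here, though they remain in the counts and in the adjustment.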

Additional observations from a re-analysis of the deposited data

Results flagged for a closer look

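In 70 checks of 4 libraries each, 4 single libraries lay far from the other 3 of their group, a rate that chance gives in about 1 in 20 checks. LPCAT3 was high in DMSO replicate 2, at 7.06 CPM, with the next at 5.88 CPM. NCOR1 was low in AF replicate 4, at 106 CPM, where the other AF libraries were near 109 CPM. UBE2D3 was high in AF replicate 4, at 270 CPM, with the next at 241 CPM. MFHAS1, one of the genes closest to ABCG1, was low in DMSO replicate 3, at 51.1 CPM, with the next at 54.9 CPM.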

How the results depend on the processing

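Over 17 alternatives the 9 genes gave 153 values, of which 136 kept their direction and side of the threshold, 11 lost the call, 1 gained it and 5 turned sign without a call. The turned values were those of ABCA7 (-0.066 with library totals alone, -0.016 without AF replicate 2), SMPDL3A (0.036 without AF replicate 2, 0.046 without DMSO replicate 4) and NCOR1 (-0.088 with library totals alone); with 1 library left out ABCA7 ranged from -0.016 to 0.18 and SMPDL3A from -0.12 to 0.046. ABCG1 kept its call in all 17. Library totals alone moved the median of all genes by -0.15. Relative to the median, ABCA1, ABCG1 and NR1H3 then had -0.28, -0.44 and 0.31, against -0.27, -0.42 and 0.31 with TMM. That scaling called 1 of the 9 genes (ABCG1), 883 genes in all (183 higher, 700 lower, against 1336 and 1369), 1 LXR target, 0 partners, 1 ligand enzyme, 1 transporter, 0 MYLIP partners and 0 acyltransferases. With no filter the calls were 4 partners, 5 ligand enzymes and 1 sphingomyelinase gene. Summed name stems gave 5 MYLIP partners and 1 sphingomyelinase gene. The cause of these moves was not tested. Leaving out 1 library gave 1 to 3 of the 9 genes (1 without AF replicate 2, AF replicate 3 or DMSO replicate 3), 1616 to 2964 genes in all (1616 without DMSO replicate 2, 1648 without DMSO replicate 3, 1660 without AF replicate 3), 0 to 4 partners, 1 to 2 transporters, 1 to 4 MYLIP partners and 1 to 2 acyltransferases. It moved the log2 ratios within -0.21 to -0.13 (ABCG1/ABCA1) and -0.69 to -0.45 (ABCA1/NR1H3).

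Nothing in the labels says that replicate numbers pair the libraries. Same-numbered deviations correlated at 0.0937, 0.129, 0.0288 and 0.192; AF replicates 1, 2 and 4 correlated best with their own number and AF replicate 3 with DMSO replicate 2 (0.0416), a hint from the data at most. With the replicate number as a block 4188 genes were called, 4 of the 9 (NR1H2 gained, adjusted p = 0.0438), 10 partners (7 higher, 3 lower), 5 ligand enzymes and 5 MYLIP partners. The blocked ABCA1/NR1H3 difference was -0.56 (exact sign-flip p = 0.125, the smallest it allows).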
